A study of Mus musculus with 6 samples.

Results

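Genes that mark or set the epithelial and the mesenchymal state were followed in mouse mammary tumour cells sorted from lung metastases. They are 10 genes chosen by name: the epithelial adhesion genes Cdh1 and Epcam, the mesenchymal genes Cdh2, Vim and Fn1, and the transcription factor genes Snai1, Snai2, Twist1, Zeb1 and Zeb2. All 10 had at least 1 probe set whose platform annotation gives that symbol alone, 23 probe sets in all, out of 18193 genes and 34945 probe sets with 1 symbol. For each gene the brightest probe set on average leads, and the others are given beside it. An _x_at probe set holds probes that can also match other transcripts.

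Cells of an epithelium are held together by junctions and keep an apical and a basal side, whereas mesenchymal cells are elongated, motile and embedded in matrix. Carcinoma cells can shift between these states, a change called epithelial-mesenchymal transition, and transcription factors of the SNAI, TWIST and ZEB families are known to drive it by repressing junction genes such as Cdh1. Lung metastasis of mammary tumours is a common setting in which the balance between the states is studied.

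The cells were MVT1, a mouse mammary tumour line derived from tumours driven by Myc and Vegf transgenes, tagged with green fluorescent protein; they were injected into a vein of FVB/N mice, and the fluorescent cells were sorted from lungs bearing metastases. There were 6 Affymetrix arrays, 2 in each of 3 groups: vehicle mice sampled 1 week after injection, vehicle mice sampled after 2 weeks, and mice sampled after 2 weeks that had been given GW2580, which blocks the kinase of the CSF1 receptor. Gavage began 1 week after injection, with GW2580 at 160 mg per kg daily suspended in hydroxypropylmethylcellulose and Tween-80, or with vehicle. The 1-week group was sampled at that time. In comparisons with it, time after injection and time on gavage cannot be told apart. Each vehicle group came from 2 mice by the design text, while how many mice the GW2580 arrays represent is not stated in the labels. The p-values measure the spread between these arrays, which may be technical. All groups share the same line, strain and host, and MVT1 is a single line. Values are log2 expression values from RMA, each scaled for the whole array, and levels of different probe sets cannot be ranked against each other.

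The arrays of a group correlated at r = 0.988 to 0.992 over the 13090 genes tested. Replicate 2 of the 2-week vehicle group had a larger gap between the beta-actin probe sets of the 3' and 5' end, a measure of RNA quality, at 1.20 where the remaining arrays had 0.38 to 0.50. The same gap of the Gapdh probe sets was 0.92 on that array and -0.13 to -0.10 on the remaining arrays. Markers of lung cells varied within groups. Scgb1a1, the club cell secretoglobin gene, ranged from 6.49 to 11.31, and the fibroblast collagen gene Col3a1 from 8.98 to 11.68, with replicate 1 above replicate 2 in the 1-week and the GW2580 group. Csf1r, the gene of the inhibited receptor, differed by -0.02 (SE 0.20) between GW2580 and vehicle at 2 weeks.

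The labels call the cells epithelial tumour cells. The keratin genes Krt8 and Krt18, which encode the intermediate filament pair of simple epithelium, read 13.52 to 13.82 and 12.93 to 13.44. From 1 to 2 weeks with vehicle they differed by -0.22 and -0.39 (limma adjusted p 0.314 and 0.101). GW2580 against 1 week gave -0.23 and -0.45 (limma adjusted p 0.377 and 0.123), and against vehicle at 2 weeks -0.01 and -0.06. Both were lower without overlap in the comparisons with 1 week, as were 25.2% and 27.9% of all genes. The only probe set of Cdh1, which encodes E-cadherin, the calcium-dependent adhesion molecule of epithelial junctions, read 3.73 and 3.67 at 1 week, 3.60 and 3.99 with vehicle at 2 weeks, and 3.49 and 3.54 with GW2580. All 6 values lay below 4.97, the 40th percentile of probe set means, under which genes were not tested. Its mean ± SD (n = 2) was 3.70 ± 0.04, 3.79 ± 0.28 and 3.52 ± 0.04 in the 3 groups. The probe set of E-cadherin, a defining epithelial gene, was thus below the filter on every array, and 1 dim probe set does not show that the transcript is absent. Cdh2, which encodes N-cadherin, was in the same range, at 3.45 to 3.76 on its lead probe set and 3.13 to 3.38 on the other. Snai2, which encodes the transcriptional repressor Slug, read 3.72 to 4.36 on its lead probe set and 3.17 to 3.95 on the other. These 3 of 10 genes were below the filter, as did 28% of all 18193 genes, and 7 were tested.

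Of the other epithelial genes in a list of junction and polarity genes, 6 of 27 measured were below the filter, among them the claudin genes Cldn4 (4.56 to 4.99) and Cldn7 (4.35 to 4.94). Of 16 measured regulators of the epithelial state, 8 were below it: Esrp1, which directs epithelial splicing (3.56 to 3.86), the transcription factor genes Grhl1, Grhl3, Ovol1, Ovol2, Elf5 and Ehf, and the pioneer factor gene Foxa1. Of 28 measured mesenchymal genes 3 were below it, and of 13 measured further transcription factors of the transition 2 were.

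**Figure D1:**
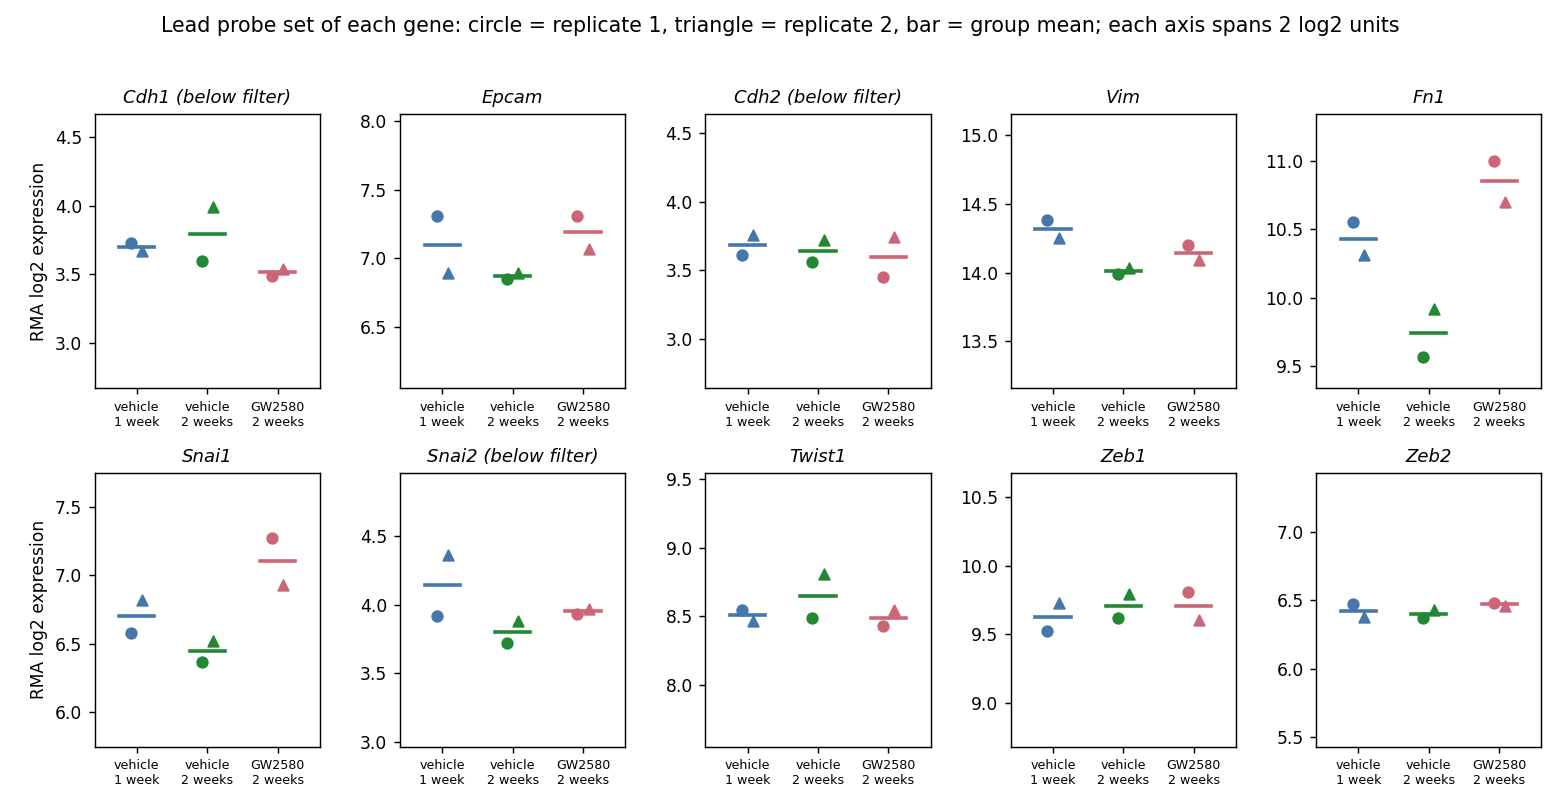
RMA log2 expression of the lead probe set of each of the 10 genes on all 6 arrays; circles are replicate 1, triangles replicate 2, and bars group means, with every axis spanning 2 log2 units around the gene's own mean. Fn1 and Snai1 are highest on both GW2580 arrays and lowest on both 2-week vehicle arrays, while Zeb2 has the smallest range of the 10 genes, at 0.11.

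Epcam encodes an adhesion molecule of epithelia that is also a target of the repressors of the transition. Its promoter is printed because it held the E-box CAGGTG, to which SNAI and ZEB factors are known to bind, and that of Snai1 because Snai1 was the transcription factor gene with the largest difference. Promoter sequences are from RefSeq (GRCm38.p6), 5' to 3' on the gene's strand, 250 bases up to the base before the start, with CAGGTG or its reverse complement CACCTG in capitals:
Epcam, chr17:87635729-87635978, plus strand: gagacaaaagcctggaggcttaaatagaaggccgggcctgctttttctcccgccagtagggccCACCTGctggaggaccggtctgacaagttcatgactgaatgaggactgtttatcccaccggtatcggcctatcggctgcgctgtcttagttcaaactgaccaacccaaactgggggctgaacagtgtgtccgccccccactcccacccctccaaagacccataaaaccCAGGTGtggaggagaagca
Snai1, chr2:167537945-167538194, plus strand: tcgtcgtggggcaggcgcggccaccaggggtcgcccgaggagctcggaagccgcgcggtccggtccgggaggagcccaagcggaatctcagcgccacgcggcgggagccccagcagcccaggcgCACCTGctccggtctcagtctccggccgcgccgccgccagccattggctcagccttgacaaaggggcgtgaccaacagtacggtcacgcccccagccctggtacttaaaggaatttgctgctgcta
The Epcam window held 2 matches and the Snai1 window 1. Of 32851 promoter windows of this length in the RefSeq table, 17.2% held at least 1. Of the 10 genes, 5 were in the table (Epcam, Vim, Snai1, Twist1 and Zeb2), and the windows of Vim, Twist1 and Zeb2 held no match. A match is a description of these letters and not evidence of binding.

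Between 1 and 2 weeks in vehicle mice, none of the 7 tested genes passed an adjusted p of 0.05 by limma, and 2 had an unadjusted p under 0.05. Over all 13090 genes tested, 6.45% passed (3.74% higher and 2.71% lower at 2 weeks) and 23.6% had an unadjusted p under 0.05. The arrays of 4 of the 7 genes did not overlap, all 4 lower at 2 weeks (Epcam, Vim, Fn1 and Snai1), where 25.2% of all genes had every 2-week array below every 1-week array and 31.5% the reverse. The median difference of the 7 genes was -0.23, and that of all genes 0.02.

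Fn1 encodes fibronectin, a matrix glycoprotein that fibroblasts and cells in transition secrete. It read 10.55 and 10.31 at 1 week, and 9.57 and 9.92 with vehicle at 2 weeks, so the 2-week arrays lay below the 1-week arrays. The difference was -0.68 (SE 0.18), a 1.61-fold lower level (95% interval -1.09 to -0.28, limma adjusted p 0.0593). Its other probe set, below the filter, read 4.40 and 4.25 at 1 week and 4.11 and 4.10 at 2 weeks, a difference of -0.22 (SE 0.22).

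Vim encodes vimentin, the intermediate filament protein of mesenchymal cells. Its lead probe set read 14.38 and 14.25 at 1 week and 13.99 and 14.03 at 2 weeks and the brightest probe set of each array read 14.6 to 14.7. The difference was -0.30 (SE 0.12, unadjusted p 0.0406, limma adjusted p 0.188), and the other probe sets gave -0.35 and -0.35, so all 3 lay in the same direction with group values that did not overlap. Vim was bright on every array, and the 95% interval of its difference was -0.59 to -0.02.

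Epcam read 7.31 and 6.89 at 1 week and 6.85 and 6.89 at 2 weeks on its lead probe set, a difference of -0.23 (SE 0.17, limma adjusted p 0.472). The 2-week values lay just below the lower 1-week value, 1 of them by less than the second decimal shows. On its other probe set, the values were 6.28 and 5.89 against 5.61 and 5.46, a difference of -0.55 (SE 0.17, unadjusted p 0.0139, adjusted over all probe sets 0.158).

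Snai1, which encodes the zinc-finger repressor Snail, read 6.58 and 6.82 at 1 week and 6.37 and 6.52 at 2 weeks, a difference of -0.26 (SE 0.16, limma adjusted p 0.391). The dim Snai2 gave -0.34 (SE 0.16) and -0.43 (SE 0.15) on its probe sets, with all 2-week arrays below all 1-week arrays on each.

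The other factors differed less on their lead probe sets. Twist1, which encodes a basic helix-loop-helix factor, read 8.55 and 8.47 against 8.49 and 8.81, overlapping groups with a difference of 0.14 (SE 0.15). Zeb1, a zinc-finger homeobox repressor of Cdh1, read 9.52 and 9.73 against 9.62 and 9.79 on the lead probe set, a difference of 0.08 (SE 0.14, 95% interval -0.25 to 0.41). Zeb2, its paralogue, read 6.47 and 6.38 against 6.37 and 6.43, a difference of -0.02 (SE 0.12).

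The probe sets of Zeb1 and Zeb2 did not give the same picture. For Zeb1, a dimmer probe set read 5.86 and 5.63 at 1 week and 4.73 and 5.46 at 2 weeks, a difference of -0.65 (SE 0.26, unadjusted p 0.0382), whereas the remaining 2 gave 0.19 (SE 0.14) and 0.15 (SE 0.14). For Zeb2, the probe set annotated with a RefSeq transcript read 4.79 and 4.47 at 1 week and 4.97 and 5.20 at 2 weeks, a difference of 0.46 (SE 0.15, unadjusted p 0.0164). It had a mean of 4.93, just below the filter, while the lead probe set differed by -0.02. The other 3 probe sets of Zeb2 differed by -0.14 to 0.04. None of the 23 probe sets passed over all probe sets, of which 2.39% did.

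The marker lists of other cells were read beside these values. The mean level of 12 fibroblast and smooth muscle markers was 7.27 and 6.50 at 1 week, and 6.29 on each vehicle array at 2 weeks, and 0 of 9 tested markers passed while 8 were lower. The macrophage markers lay at 6.87 to 6.87 and 6.80 to 6.90, with 4 of 12 above 0 and 8 below. Of these 1 fell, the leukocyte gene Ptprc by 0.61. In the other direction, Cd68 and C1qc differed by 0.98 and 0.42 (limma adjusted p 0.115 and 0.163), and the brightest marker, Cd14, by 0.06. The lung epithelium markers lay at 7.23 to 7.39 and 7.19 to 7.21, with 11 of 13 above 0, and 1 rose, the surfactant protein gene Sftpd by 0.89. The larger differences of that list were in the secretoglobin genes Scgb1a1 (-3.16, unadjusted p 0.0150) and Scgb3a2 (-2.26, unadjusted p 0.0163), the 2 of 13 below 0. These did not pass but were lower on both 2-week arrays, as were 25.2% of all genes. Of 10 mammary epithelium markers 9 were below 0 and 1 fell, the casein gene Csn3 by 0.95. Of 6 endothelium markers 0 passed (4 below 0), with Plvap at -1.20 and Tie1 at 0.86 (limma adjusted p 0.0879 and 0.0924). RMA gives no marker a value of 0; Fap, Postn and Thy1 of the fibroblast list and Itgam of the macrophage list were below the filter. Fibroblasts make fibronectin and vimentin, and lung epithelium makes Epcam; the part of such cells in these differences was not tested. In bulk RNA, fewer cells of a type and less RNA per cell cannot be told apart.

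In the wider programme between 1 and 2 weeks, 1 of 21 tested junction and polarity genes and 2 of 25 mesenchymal genes passed, counts near the 6.45% of all genes that did. Cgn, which encodes the tight junction protein cingulin, read 6.31 and 6.19 at 1 week and 5.68 and 5.76 at 2 weeks and fell by 0.53 (SE 0.12, limma adjusted p 0.0457), while its dim other probe set overlapped between the groups. Of the mesenchymal genes 1 rose and 1 fell. Tgfbi, a matrix protein gene induced by TGF-beta, went from 6.98 and 7.40 to 8.64 and 8.82 and rose by 1.54 (SE 0.17, limma adjusted p 0.0102), with the same direction on its 3 other probe sets. Tnc, the matrix glycoprotein gene tenascin C, went from 6.95 and 6.15 to 5.09 and 5.52 and fell by 1.24 (SE 0.26, limma adjusted p 0.0354).

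The mesenchymal list had a median of -0.32, with 18 of 25 genes below 0, against a median of 0.02 over all genes; 8 of its 30 genes also stand in the fibroblast list. At an unadjusted p under 0.05 there were 13 of 25 mesenchymal genes, 5 of 21 junction genes, 1 of 8 regulators and 3 of 11 further factors, where 23.6% of all genes were. The median of 8 epithelial regulators was -0.20, with the Kruppel-like factor gene Klf4 at -0.74 (unadjusted p 0.0247) and Klf5 at -0.31, and none passed. None of 11 further transcription factors passed (median 0.15): Fosl1, an AP-1 subunit gene, differed by -0.73 and Sox9 by 0.57. Without replicate 1 of the 1-week group, Cgn differed by -0.47, Tgfbi by 1.32 and Tnc by -0.84, and the mesenchymal median was -0.12. Leaving out 1 array at a time, Cgn ranged from -0.59 to -0.47, Tgfbi from 1.32 to 1.75 and Tnc from -1.65 to -0.84. Whether these 3 genes passed depended on the arrays kept, as it did over all genes.

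The 2-week groups were compared to ask how inhibiting the receptor in macrophages bears on the tumour cells, the question in the title of the series. Fn1 and Snai1 had the largest differences of the 7 tested genes, at 1.10 and 0.66 log2 units higher with GW2580, but none of the 7 passed an adjusted p of 0.05 by limma. At an unadjusted p under 0.05 there were 2 of 7, against 18% of all genes, and 0.367% of all genes passed (0.0688% higher and 0.298% lower with GW2580). In 5 of 7 genes (Epcam, Vim, Fn1, Snai1 and Zeb2) both GW2580 arrays lay above both vehicle arrays, as for 18.3% of all genes; both lay below for none of the 7 and for 31.5% of all genes. The median difference of the 7 genes was 0.13, and that of all genes -0.05.

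Fn1 read 11 and 10.70 with GW2580, above 9.57 and 9.92 with vehicle, and also above the 10.55 and 10.31 of the 1-week arrays. Group means ± SD (n = 2) were 10.85 ± 0.21 and 9.75 ± 0.25. The level was 2.15-fold higher with GW2580 (difference 1.10, SE 0.18, 95% interval 0.70 to 1.51, unadjusted p 0.000238, limma adjusted p 0.0530). The adjusted p was thus just outside the threshold, and 0.710% of all genes had a larger absolute difference. Its dim other probe set read 4.95 and 4.23 against 4.11 and 4.10, a difference of 0.49 (SE 0.22).

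Snai1 read 7.27 and 6.93 with GW2580, above 6.37 and 6.52 with vehicle and above both 1-week arrays. The difference was 0.66 (SE 0.16), a 1.58-fold higher level (95% interval 0.28 to 1.03, unadjusted p 0.00363, limma adjusted p 0.108). Snai2 lay below the filter; its lead probe set read 3.93 and 3.97 against 3.72 and 3.88, a difference of 0.15 (SE 0.16), and its other 3.95 and 3.64 against 3.17 and 3.42, a difference of 0.50 (SE 0.15).

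Epcam differed by 0.32 (SE 0.17, limma adjusted p 0.362) on its lead probe set, which read 7.31 and 7.07 with GW2580, but by -0.01 (SE 0.17) on the other, which read 5.68 and 5.38 against 5.61 and 5.46. The probe sets of Epcam thus disagreed. Vim read 14.20 and 14.09 with GW2580, a difference of 0.13 (SE 0.12, 95% interval -0.16 to 0.42), with 0.10 and 0.14 on its other probe sets.

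Twist1 read 8.43 and 8.55 with GW2580, a difference of -0.16 (SE 0.15, 95% interval -0.50 to 0.17). Zeb1 read 9.81 and 9.60, a difference of -0.0014 (SE 0.14, 95% interval -0.33 to 0.33). Zeb2 read 6.48 and 6.46, a difference of 0.07 (SE 0.12, 95% interval -0.21 to 0.35), and its RefSeq probe set -0.0069 (SE 0.15). As ratios of GW2580 to vehicle, the intervals of these 3 factors reach from 0.708 to 1.27, and do not show that the genes stayed the same. Cdh1 read 3.49 and 3.54 against 3.60 and 3.99, a difference of -0.27 (SE 0.15) in the dim range. None of the 23 probe sets passed over all probe sets, of which 0.429% did.

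**Figure D2:**
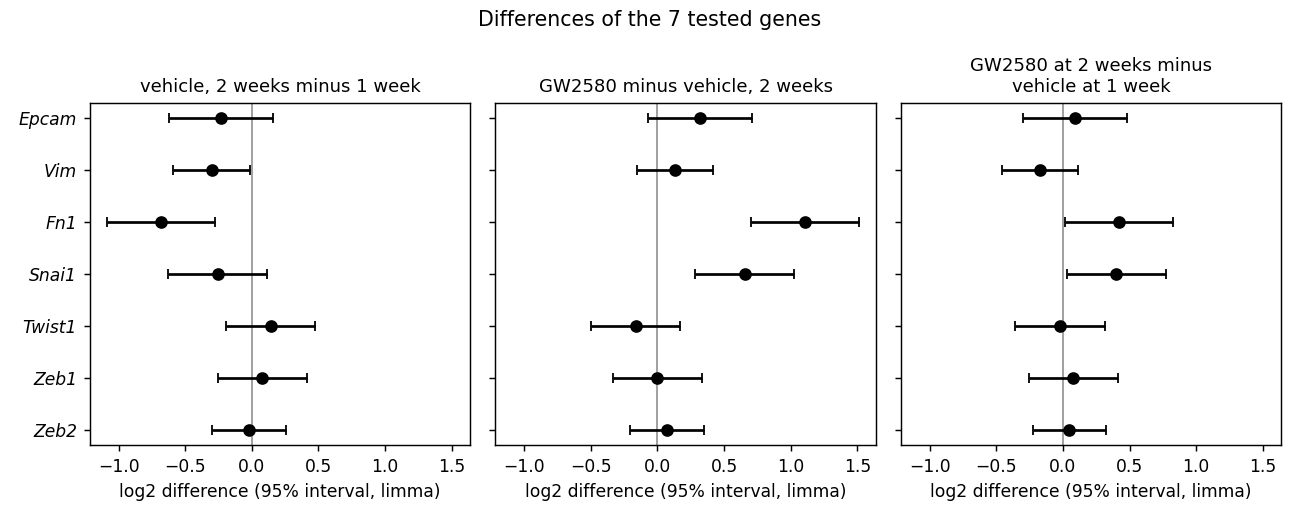
Log2 differences of the 7 tested genes with 95% intervals from limma in the 3 comparisons. Fn1 lies at -0.68 between the vehicle groups and at 1.10 for GW2580 against vehicle. The intervals of Epcam, Twist1, Zeb1 and Zeb2 cross 0 in every panel.

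The time and the GW2580 comparison share the 2-week vehicle arrays, so opposite signs in them are not independent. Replicate 2 of that group, the array with the larger beta-actin gap, was the higher of the pair for Fn1 and Snai1, and without it their differences were 1.28 and 0.73. Leaving out replicate 2 of the GW2580 group brought Fn1 to 1.25 and an adjusted p of 0.0471, and leaving out replicate 1 to 0.96 and 0.208.

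Beside these differences, the fibroblast and smooth muscle markers had a mean level of 6.09 to 6.59 with GW2580 and 6.29 to 6.29 with vehicle, overlapping ranges, and 0 of 9 tested passed (5 above 0). The lung epithelium markers were at 6.58 to 7.12 with GW2580 against 7.19 to 7.21, with 10 of 13 below 0, a median of -0.46 and 8 at an unadjusted p under 0.05, against 18% of all genes. Of these 2 fell, the surfactant protein genes Sftpa1 by 1.78 and Sftpd by 1.12, and the largest difference was that of Sftpc (-2.07, limma adjusted p 0.0647), while Scgb1a1 and Scgb3a2 differed by 1.97 and 1.64. Macrophage markers were at 6.52 to 6.86 against 6.80 to 6.90, with 9 of 12 below 0 and 0 passing. The complement genes C1qa (5.62 and 5.61 against 6.77 and 5.93, difference -0.73, unadjusted p 0.0162, limma adjusted p 0.180) and C1qc (4.95 and 5.27 against 5.81 and 5.56, difference -0.58, unadjusted p 0.00679, limma adjusted p 0.130) were lower on both GW2580 arrays, and the brightest marker, Cd14, read 10.29 and 10.62 against 10.45 and 10.51. Of 6 endothelium markers 0 passed (3 above 0 and 3 below), with the smallest p at Plvap (1.54, limma adjusted p 0.0971). Of 10 mammary epithelium markers 0 passed (7 above 0), with Csn3 at 0.90 and Krt19 at 0.94 (limma adjusted p 0.0783 and 0.195). Scgb1a1 read 10.91 and 7.59 with GW2580 and 6.49 and 8.08 with vehicle, and Col3a1 10.90 and 8.98 against 9.29 and 9.49. On replicate 2 of the GW2580 group, Scgb1a1 and Col3a1 lay within or below the vehicle values. On that array Fn1, at 10.70, lay above both vehicle arrays, as did Plvap at 9.06 against 8.34 and 7.06. These are readings of 1 array, and the endothelium markers did not share the direction of Plvap as a list. Between the 2-week groups Erg and Kdr were also above 0 (0.19 and 0.08). Tie1, Cdh5 and Cldn5 were below 0 (-0.52, -0.09 and -0.06). The part of other cells in the values of Fn1 was not tested. Epcam read 7.31 on replicate 1 of the 1-week and of the GW2580 group, its highest values, and 6.85 on replicate 1 of the 2-week vehicle group, its lowest. On these 3 arrays Scgb1a1 read 11.31, 10.91 and 6.49, whereas Sftpc ran the other way at 8.33, 7.90 and 9.98. So did Sftpd at 6.38, 6.10 and 7.50 and Sftpa1 at 7.21, 6.48 and 8.22. The replicate 2 arrays did not repeat the order of Scgb1a1. In the 1-week, GW2580 and 2-week vehicle groups they read 6.89, 7.07 and 6.89 for Epcam, and 9.59, 7.59 and 8.08 for Scgb1a1. The part of lung epithelial cells in the values of Epcam was not tested.

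**Figure D3:**
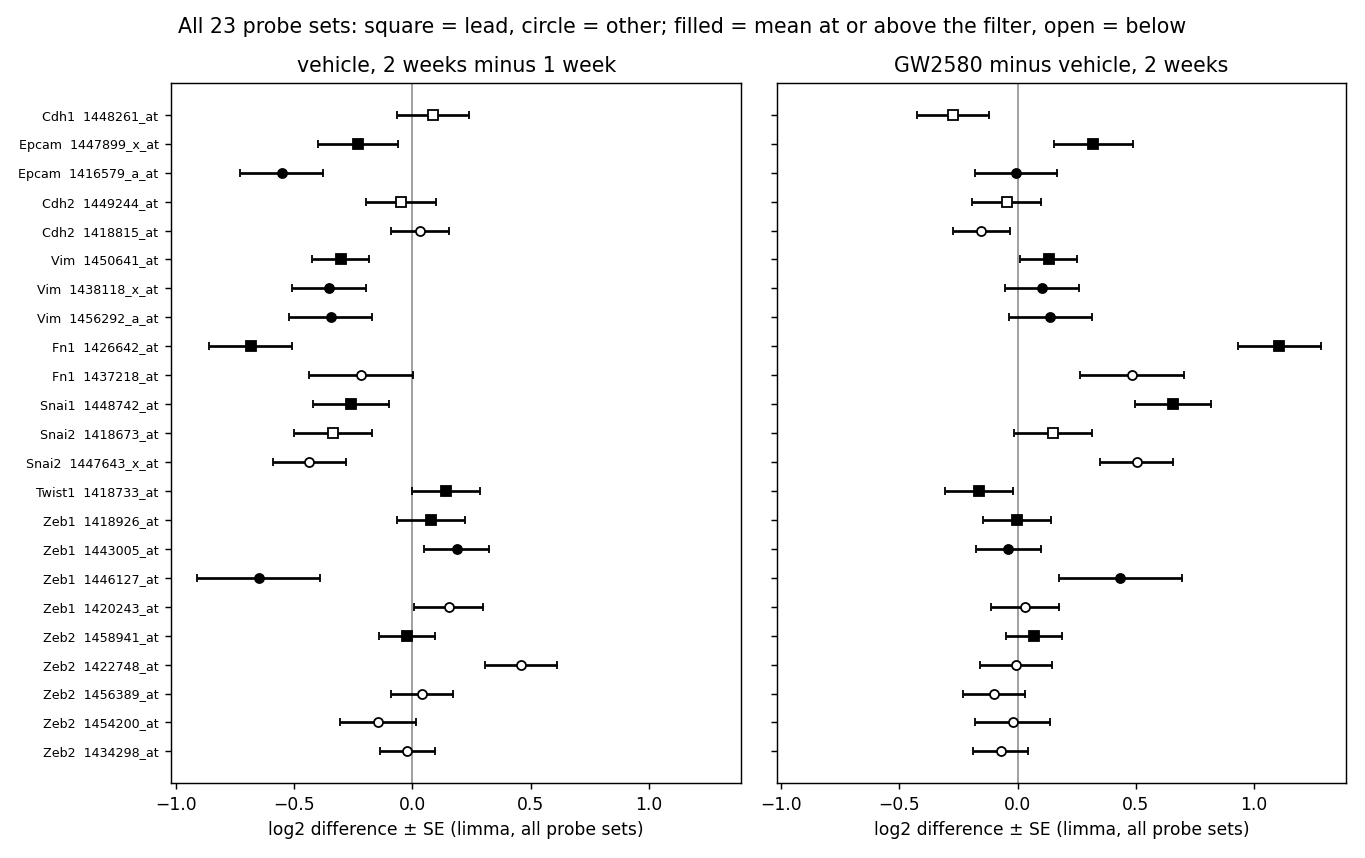
Log2 difference ± SE of all 23 probe sets of the 10 genes, for 2 weeks against 1 week in vehicle mice and for GW2580 against vehicle; squares are lead probe sets, and open symbols lie below the filter of 4.97. The 3 probe sets of Vim fall close together. Those of Zeb1, Epcam and Fn1 spread in both panels, those of Zeb2 over time and those of Snai2 with GW2580.

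In the wider programme no gene of the 4 lists passed with GW2580 against vehicle. The smallest p among mesenchymal genes was that of Col5a1, a fibrillar collagen gene, which read 11.31 and 11.37 with GW2580 and 10.52 and 10.63 with vehicle (difference 0.76, limma adjusted p 0.0530), with 0.46 and 0.24 on its other probe sets. Tnc differed by 0.84 (limma adjusted p 0.156). The mesenchymal median was 0.16, with 16 of 25 genes above 0. Its sign depended on 1 array: it was -0.11 without replicate 1 of the GW2580 group and 0.22 without replicate 2.

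Among 21 junction and polarity genes the median was 0.02, and the smallest p belonged to Pkp3, which encodes the desmosomal plakophilin 3 (mean ± SD 8.17 ± 0.23 against 8.90 ± 0.08, n = 2, difference -0.73, limma adjusted p 0.0799), and Perp, another desmosomal gene (-0.49). Among 8 epithelial regulators (median 0.18) they belonged to the transcription factor genes Elf3 (0.42) and Gata3 (0.46), and among 11 further transcription factors (median 0.07) to Foxc2 (-0.43) and Sox9 (0.32). The counts at an unadjusted p under 0.05 were 3 of 25 mesenchymal genes, 2 of 21 junction genes, 2 of 8 regulators and 1 of 11 further factors, where 18% of all genes were. The median of all genes was -0.05.

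**Figure D4:**
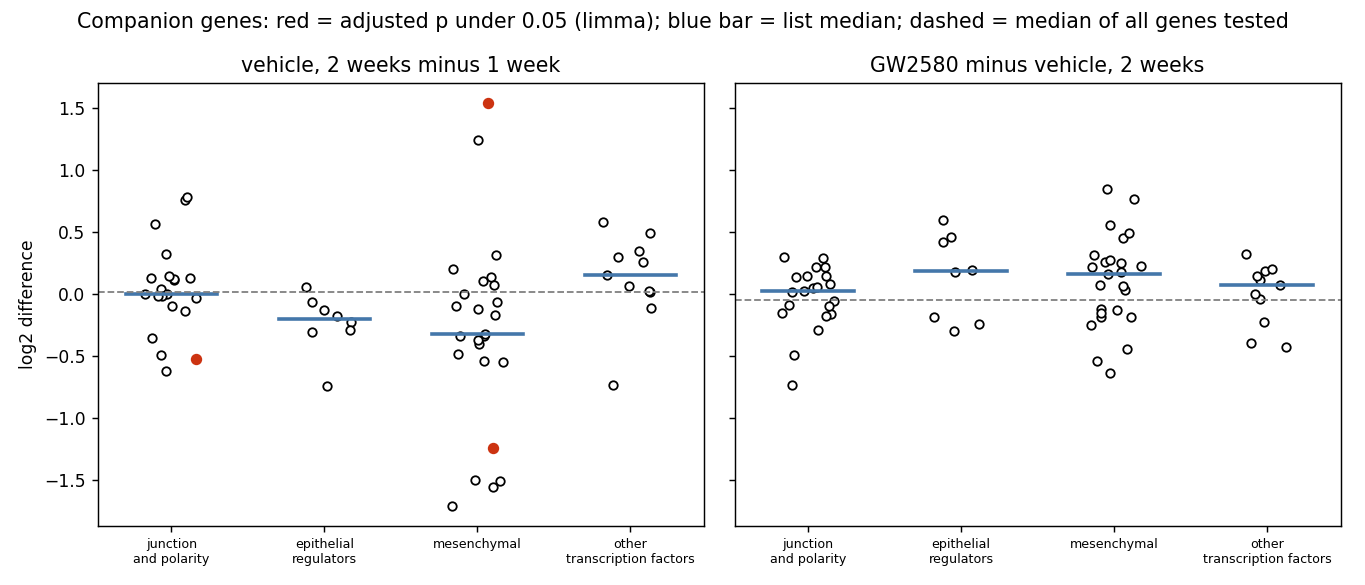
Log2 differences of the tested genes of 4 lists in the vehicle time comparison and in GW2580 against vehicle; red points passed an adjusted p of 0.05 by limma, blue bars are list medians and the dashed line is the median of all genes tested. In the first panel Tgfbi stands at 1.54, Tnc at -1.24 and Cgn at -0.53; in the second no point passed.

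GW2580 at 2 weeks against vehicle at 1 week shares no array between its groups, but each group also stands in a comparison above. Time and drug differ together in it and cannot be told apart. None of the 7 genes passed, against 0.512% of all genes (0.359% higher and 0.153% lower), and 2 had an unadjusted p under 0.05, against 17%. Fn1 was 0.42 higher (SE 0.18, unadjusted p 0.0429, limma adjusted p 0.275) and Snai1 0.40 higher (SE 0.16, unadjusted p 0.0387, limma adjusted p 0.263), each with both GW2580 arrays above both 1-week arrays, as for 18.8% of all genes. Vim was lower on its lead probe set on both GW2580 arrays, by 0.17 on average (SE 0.12), as 27.9% of all genes were lower without overlap, but overlapped on the other 2 probe sets.

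Epcam differed by 0.09 on its lead and by -0.56 (SE 0.17, unadjusted p 0.0131) on its other probe set, where 5.68 and 5.38 lay below 6.28 and 5.89. The RefSeq probe set of Zeb2 was 0.45 higher (SE 0.15, unadjusted p 0.0175), at 5.09 and 5.07 against 4.79 and 4.47, against 0.05 on the lead. Twist1 and Zeb1 differed by -0.02 and 0.08. Of the lists, Tgfbi rose by 1.85 (SE 0.17, limma adjusted p 0.00638), to 9.00 and 9.09. Its difference was 1.64 without the first 1-week array and 1.80 without the second GW2580 array. Whether Tgfbi passed depended on the arrays kept, as it did over all genes. No other gene of the 4 lists passed. The smallest p of the junction list belonged to Cgn (-0.52) and the polarity gene Pard6b (-0.60), of the regulators to the splicing factor gene Esrp2 (-0.53) and Cbfb (-0.31), and of the further factors to Sox9 (0.89) and Foxc1 (0.35). Beside these values, the fibroblast and smooth muscle markers were lower than at 1 week in 9 of 9 tested, with 0 passing and a median of -0.68. Lung epithelium markers were lower in 11 of 13 (median -0.27) and macrophage markers in 9 of 12 (median -0.20). Mammary epithelium markers were lower in 6 of 10 and endothelium markers in 2 of 6, and 0 passed in these lists. The part of such cells was not tested. Of all probe sets 0.0799% passed, and 0 of the 23.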

How the data were processed

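RNA of sorted MVT1 cells was measured on 6 Affymetrix mouse genome arrays from 2 µg of total RNA. The authors deposited log2 values for 45101 probe sets, and the submitters' processing notes name RMA without a version. RMA corrects background, quantile-normalises across arrays and summarises each probe set, so shifts shared by most genes are hidden. Precision is limited by the number of arrays.

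After 64 control probe sets, 34945 of 45037 had 1 gene symbol in the platform annotation, 932 several and 9160 none there; 34741 matched RefSeq by gene identifier. The probe set with the highest mean led each of 18193 genes, and 13090 with a mean of at least 4.97 (40th percentile) were tested. limma (version 3.58.1, R 4.3.3) fitted 3 group means over 6 arrays with 3 residual and 4.97 prior degrees of freedom; p-values were adjusted by Benjamini-Hochberg over all genes, threshold 0.05. Other probe sets come from the same model over all 45037. Errors are limma SE or SD of 2 arrays. A permutation test of 2 against 2 cannot go below p = 0.333. The scripts were tested on simulated data.

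Named companion genes are, per list and comparison, up to 3 called per direction, or the 2 smallest p where none was called. Of the marker lists, the called, the brightest and some with the smallest p are named. Other markers, such as Scgb3a2, Sftpc and Cd68, are named for their values. Csf1r, Krt8 and Krt18 were read as checks. Marker lists of macrophages, fibroblasts and smooth muscle, lung epithelium, endothelium and mammary epithelium were read the same way. The members and lists were chosen with earlier results of these data known. Replicate numbers were not used to pair the arrays in the main fit. Alternatives were the filter, the features, the probe set summary, the scaling, the variance model, the arrays fitted, a replicate block and leaving out each array.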

Additional observations from a re-analysis of the deposited data

How the results depend on the processing

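With no filter, the trend and robust variance model, or a replicate block, 1 of the 7 genes (Fn1) passed in GW2580 against vehicle, with adjusted p of 0.0464, 0.0249 and 0.0431, and the trend and robust model passed 2 (Fn1 and Vim) in the vehicle time comparison. Leaving out 1 array at a time gave 0 to 1 in the former. Deviations of equal-numbered arrays correlated at 0.292 between the 1-week and the GW2580 group. They correlated at 0.0022 and 0.0094 between the 2-week vehicle group and these 2 groups. What the arrays of equal number share was not tested. Over all genes in GW2580 against vehicle at 2 weeks, 74 passed with no filter, 193 of all probe sets, 131 with the trend and robust model, 0 with only the 4 arrays compared (2120 at an unadjusted p under 0.05), 154 with the replicate block, and 0 to 167 without 1 array. Against vehicle at 1 week these were 36 of all probe sets, 139 with the trend and robust model, 24 with 4 arrays, 182 with the block and 0 to 169 without 1 array. The time comparison gave 0 to 1059 without 1 array.

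For junction genes over time, 0 passed over all probe sets and with probe sets averaged, 2 with a common 75th percentile, 3 with the trend and robust model, with 4 arrays and with the replicate block, and 0 to 3 without 1 array. For mesenchymal genes over time, 1 passed over all probe sets and with probe sets averaged, 6 with 4 arrays and with the block, and 0 to 6 without 1 array. In GW2580 against vehicle at 2 weeks, 1 mesenchymal gene passed with no filter, the 75th percentile, the trend and robust model and the block; against 1 week, 2 passed with the block and 0 to 1 without 1 array. For the further transcription factors over time, 1 passed with probe sets averaged and with the trend and robust model, and 2 with the block; in GW2580 against 1 week, 1 passed with the block and 0 to 1 without 1 array.

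Small differences changed sign. With probe sets averaged, Epcam in GW2580 against 1 week was -0.23, Zeb1 0.11 in GW2580 against vehicle and -0.057 over time, and Cgn -0.13 in GW2580 against vehicle; with the 75th percentile Zeb1 was 0.025. Without 1 array, against 1 week Epcam ranged from -0.12 to 0.30, Twist1 from -0.078 to 0.034, Zeb1 from -0.030 to 0.18 and Tnc from -0.81 to 0.0022. Over time Twist1 ranged from -0.017 to 0.30, Zeb1 from -0.028 to 0.19 and Zeb2 from -0.067 to 0.023. In GW2580 against vehicle Zeb1 ranged from -0.11 to 0.10 and Cgn from -0.031 to 0.061. The cause was not tested.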
